A study of Mus musculus with 12 samples.

Results

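Transcripts of 7 genes were followed in cultured mouse fibroblasts: prothymosin alpha (Ptma) and parathymosin (Ptms), the beta-thymosins Tmsb10 and Tmsb4x, the profilins Pfn1 and Pfn2, and the sorting receptor gene Sorcs2. They are 7 of the 26305 genes with an identifier in the count table. Ptma, Tmsb10 and Sorcs2 were chosen by their counts at 240 h, where WM-2474 and DMSO libraries differed at an adjusted p under 0.05, and the others as near a call there or as relatives, although none of them had an adjusted p under 0.324. Values of that comparison are therefore a description of the choice, and nothing is tested with them. Sorcs2 belongs to none of the other families and stands with them for its call alone.

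RNA was sequenced from mouse embryonic fibroblasts, primary cells grown out of E13.5 embryos. All 12 cultures were wild type, male and of strain C57BL/6, and all grew in low oxygen. The groups were WM-2474 for 240 h, DMSO for 240 h, WM-2474 for 96 h and DMSO for 96 h, with 3 biological replicates each. WM-2474 was given at 10 µM and is named in the labels as an inactive control compound, and DMSO was its solvent. No library here received an active compound, and nothing in the labels says whether replicates came from different embryos.

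Beta-thymosins and profilins both bind monomeric actin: beta-thymosins hold monomers back from assembly, whereas profilins load them with ATP and hand them to growing filament ends. Prothymosin alpha and parathymosin are small, strongly acidic, unfolded proteins of the nucleus that bind linker histones, and Ptma is a known target of Myc and is abundant in dividing cells. Sorcs2 belongs to the Vps10 domain receptors, which bind proneurotrophins and sort receptors between membranes, mostly studied in neurons. On GRCm38, in the RefSeq annotation, Ptma (gene ID 19231) lies at chr1:86526557-86530712 on the plus strand. The other 6 lie on minus strands: Ptms (69202) at chr6:124913675-124917946, Tmsb10 (19240) at chr6:72957347-72958748, Tmsb4x (19241) at chrX:167207093-167213479, Pfn1 (18643) at chr11:70651844-70656799, Pfn2 (18645) at chr3:57841895-57847757 and Sorcs2 (81840) at chr5:36017180-36398197. All are annotated as protein coding.

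The coding sequences of the beta-thymosins are shown because the counts of this pair were far apart. Both hold 135 bases, and 95 of them are equal (70.4%). Capitals mark the 40 bases that differ, read 5′ to 3′ from the GENCODE vM21 transcripts on GRCm38. Tmsb10 is read from chr6:72957618-72958012 and Tmsb4x from chrX:167207501-167208036, both on the minus strand and with introns left out.
Tmsb10: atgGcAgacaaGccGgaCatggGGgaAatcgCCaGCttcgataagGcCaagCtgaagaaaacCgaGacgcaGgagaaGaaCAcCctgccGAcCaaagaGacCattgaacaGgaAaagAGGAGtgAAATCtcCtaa
Tmsb4x: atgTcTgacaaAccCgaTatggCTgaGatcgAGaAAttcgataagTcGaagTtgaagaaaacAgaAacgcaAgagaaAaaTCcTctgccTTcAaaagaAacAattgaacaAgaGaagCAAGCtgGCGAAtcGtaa

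Upstream sequence is shown for Ptma and Tmsb10, whose levels differed the same way at 240 h. Each run holds the 250 bases before the RefSeq start of the gene on GRCm38.p6, with capitals on a GC box (GGGCGG or its reverse complement). Ptma is read from chr1:86526307-86526556 on the plus strand and has a GC content of 69.2%. Tmsb10 is read from chr6:72958749-72958998 on the minus strand and has a GC content of 56.8%.
Ptma: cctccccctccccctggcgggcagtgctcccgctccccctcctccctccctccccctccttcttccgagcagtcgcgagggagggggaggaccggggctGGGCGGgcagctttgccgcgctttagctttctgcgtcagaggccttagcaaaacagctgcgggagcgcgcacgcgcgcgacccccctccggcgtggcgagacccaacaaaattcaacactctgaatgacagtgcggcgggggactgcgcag
Tmsb10: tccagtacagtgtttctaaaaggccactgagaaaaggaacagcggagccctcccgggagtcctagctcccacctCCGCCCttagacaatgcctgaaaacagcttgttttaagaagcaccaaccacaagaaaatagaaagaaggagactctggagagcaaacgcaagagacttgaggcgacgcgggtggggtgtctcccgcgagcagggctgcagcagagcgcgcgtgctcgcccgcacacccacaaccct
The GC box began 151 bases before the Ptma start on the same strand, and 176 bases before the Tmsb10 start on the opposite strand. The GC box and 3 other motifs, none of which contains another, were searched on both strands of the 250 bases before each RefSeq start. These stretches are called windows here. Tmsb10 has 3 of them, and only that before the start of the gene is shown. Shares over all windows are counted per window, so Tmsb10 had more chances of a match. GGGCGG was found for all 6 of the 7 genes that have a window, Sorcs2 having none. It was also found in 32.7% of all 32851 windows. CCAAT, held by 33.8% of all windows, and TATAAA, held by 12.4%, were found in none of the windows of these 6 genes. CACGTG, held by 6.02% of all windows, was found for Pfn2 and for no other of the 6. These matches describe letters in a window and say nothing of binding.

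Libraries held 7313007 to 26019167 counts, and a floor of 3 counts lay between 0.115 and 0.41 CPM (counts-per-million, scaled with TMM factors). All 10 fibroblast markers exceeded the floor in every group. They summed to 50822 to 52682 CPM with WM-2474 and 48084 to 49595 CPM with DMSO at 240 h, and to 31366 to 37071 CPM with WM-2474 and 31748 to 37283 CPM with DMSO at 96 h. DMSO 240 h replicates 1 and 2, the shallowest libraries, stood apart: their B lineage markers other than Cd24a summed to 19.9 and 24.7 CPM, against 0.938 to 5.08 CPM in the other 10 libraries. Of these 15 markers, 9 and 11 exceeded the floor in that pair and 1 to 8 elsewhere. Xist, the long RNA made by the silenced X of females, reached 5.23 and 4.48 CPM in that pair and at most 0.924 CPM elsewhere, although the labels call every culture male. At 96 h those B lineage markers summed to 3.89, 4.3 and 2.44 CPM with DMSO, against 1.33, 1.43 and 0.938 CPM with WM-2474. Xist had 0.885, 0.527 and 0.517 CPM with DMSO at 96 h, against 0.199, 0.084 and 0 CPM with WM-2474. In both, every DMSO library at 96 h lay above every WM-2474 library at 96 h. The B-cell gene Ms4a1 had 0 counts in all 240 h libraries, and the T-cell gene Cd3e had 0 in all 12. Macrophage, endothelial and epithelial marker lists each summed to at most 14.8 CPM at 240 h and 26.8 CPM at 96 h. T lineage markers other than Thy1, which is also a fibroblast marker, summed to at most 1.73 CPM. The 6 neural markers summed to 70.7 to 80.9 CPM at 240 h and 65.3 to 79.3 CPM at 96 h, mostly from the tubulin gene Tubb3 (54 to 71.8 CPM). Map2 had 9.36 to 14.6 CPM at 240 h and 2.73 to 4.84 CPM at 96 h. Sox10 had 0.849 to 4.44 CPM, and Gfap, Elavl4 and Syt1 had 0 to 1.02 CPM each. Each result that uses DMSO at 240 h rests partly on DMSO 240 h replicates 1 and 2, so log2 fold changes of the members, ratios and counts of gene lists are also given without both. Whether such other RNA takes part in a result, at 240 h or at 96 h, was not tested. Fewer cells of a type and less RNA per cell cannot be told apart in such bulk libraries.

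Per exon length, Pfn1 was the most abundant of the 7 genes, with a mean of 784 RPKM (CPM divided by the exon length in kilobases) over the 12 libraries and rank 35 of all genes. Ptms followed with 474 RPKM, Tmsb10 with 210 RPKM and Ptma with 126 RPKM. Pfn2, a profilin best known from brain, had 33.6 RPKM, and Sorcs2 had 21.2 RPKM. Library ranges of neighbours in this order did not overlap: Pfn1 lay between 685 and 846 RPKM, Ptms between 395 and 532, Tmsb10 between 170 and 244, Ptma between 97.4 and 149, Pfn2 between 30.1 and 37.7, and Sorcs2 between 16.2 and 29.3 RPKM. Tmsb4x came last, with a mean of 0.231 RPKM and rank 14100.

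Tmsb4x, which encodes the beta-thymosin known as abundant in most mammalian cells, had 2, 1 and 1 counts with WM-2474 and 1, 3 and 7 counts with DMSO at 240 h. At 96 h it had 2, 0 and 1 counts with WM-2474 and 3, 0 and 3 counts with DMSO. It reached at most 0.407 CPM, lay at or near the floor in every library and did not pass the filter on low counts. No fold change is given for it. Of its 1367 transcript words of 31 bases, 0% occur in another annotated gene. The aligner and the treatment of reads that map to several places are not given in the sources used here. Copies outside the annotated transcripts were not searched. Why Tmsb4x had so few counts was not tested, and they are not to be read as absence of the transcript.

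Copies in the genome limit Ptma and Tmsb10 more than the other 5 genes. Of 1511 words of 31 bases in Ptma transcripts, 31.7% also occur in another gene, and 13 genes share at least 20 words with it. The count table holds 2 of these pseudogenes, Gm7614 with 1 to 7 counts and Gm6625 with 0 to 4 counts per library, against 821 to 3034 counts for Ptma. The closest copies by shared words, Gm4617 with 282 words and Gm12504 and Gm9800 with 243 words each, were not analysed here. Tmsb10 shares 32% of its 1244 words with other genes, and Gm9844, annotated as protein coding, shares 336 of them. Of Pfn1 words 0.803% and of Pfn2 words 0.228% occur elsewhere, and for Ptms, Tmsb4x and Sorcs2 the share was 0. Reads of such stretches could have been dropped or split by the authors' counting, so levels of Ptma and Tmsb10 are uncertain. Gapdh, a glycolysis gene known for its many processed pseudogenes, had 42.6 to 65.8 RPKM, against 1694 to 2010 RPKM for the actin gene Actb. Whether such reads were dropped was not tested. Gm7614 and Gm6625 held at most 0.417% and 0.152% of the Ptma counts of a library. Adding their counts to Ptma changed none of its calls, which shares this small could hardly do. It says nothing of the other copies.

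At 240 h, Ptma, Tmsb10 and Sorcs2 were higher with WM-2474 than with DMSO by 1.23-fold to 1.27-fold, and Pfn1 by 1.16-fold. Ptma had 147, 154 and 145 CPM with WM-2474, against 116, 117 and 122 CPM with DMSO. Tmsb10 had 230, 204 and 200 CPM with WM-2474, against 160, 173 and 167 CPM with DMSO. In both genes every WM-2474 library lay above every DMSO library. Sorcs2 had 168, 160 and 156 CPM with WM-2474, against 127, 131 and 134 CPM with DMSO. Pfn1 had 733, 721 and 691 CPM with WM-2474, against 615, 596 and 632 CPM with DMSO. The groups did not overlap in these genes either. Ptms overlapped, with 591, 496 and 530 CPM under WM-2474, against 478, 456 and 504 CPM under DMSO. Pfn2 went the other way without overlap, with 63.3, 60.7 and 62.3 CPM under WM-2474, against 68.5, 66.9 and 63.5 CPM under DMSO.

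**Figure D1:**
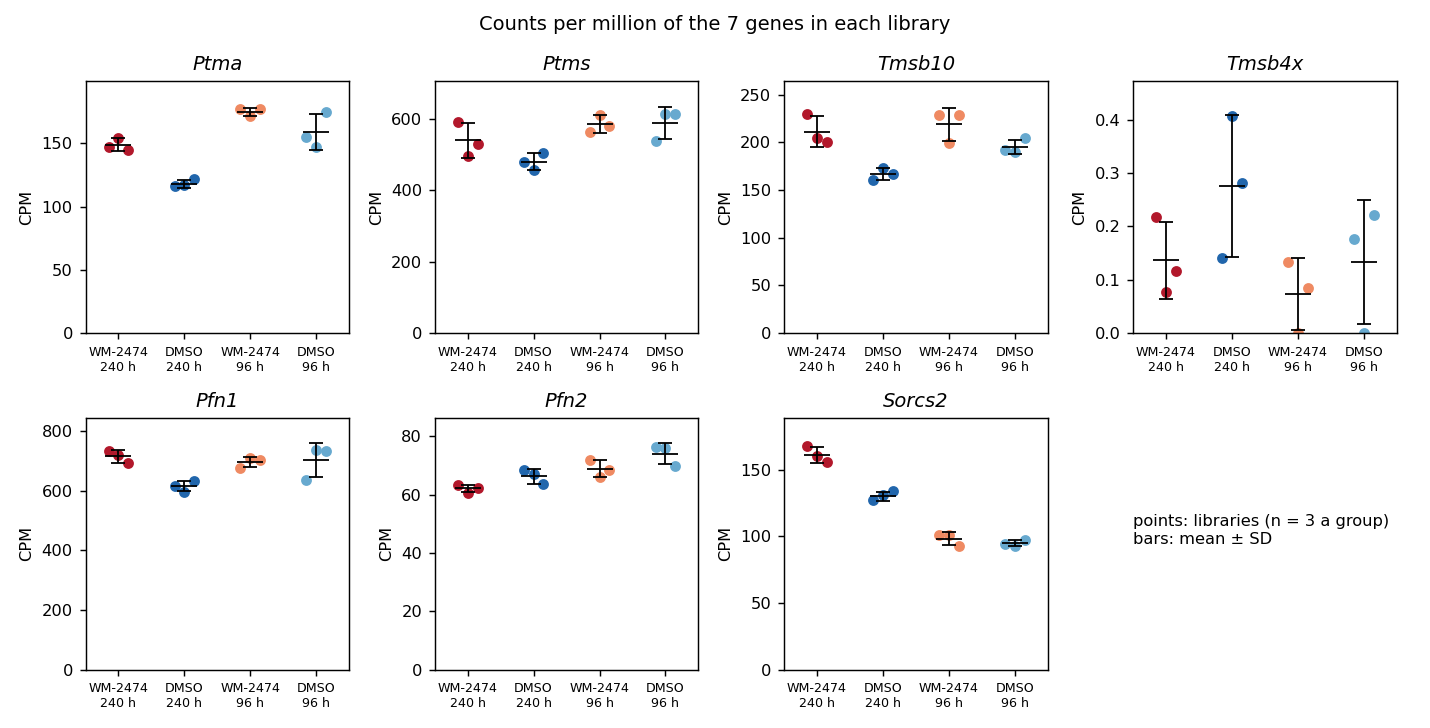
CPM (vertical axes from 0) of each gene in each library, with points for the 3 libraries of a group and bars for mean ± SD. At 240 h the WM-2474 libraries of Ptma, Tmsb10, Pfn1 and Sorcs2 lie above all DMSO libraries, Sorcs2 is higher at 240 h than at 96 h under both treatments, and Tmsb4x stays under 0.41 CPM.

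The log2 fold changes of WM-2474 over DMSO at 240 h were 0.33 ± 0.06 (SE) for Ptma, 0.34 ± 0.06 for Tmsb10 and 0.30 ± 0.05 for Sorcs2, and these values chose the genes. In edgeR's quasi-likelihood test with Benjamini-Hochberg adjustment over 13499 genes, the adjusted p was 0.017 for Ptma and Sorcs2 and 0.0231 for Tmsb10 (n = 3 libraries per group). Of the members outside the threshold of 0.05, Pfn1 had the lowest adjusted p, 0.324, with 0.22 ± 0.05, and it was not called. Ptms had 0.17 ± 0.06 and Pfn2 -0.09 ± 0.06. Called were 3 of the 6 genes tested, all higher with WM-2474, beside 0.0296% of all genes, which is 4 genes in either direction, again 0.0296% higher and 0% lower. The other called gene was Gm8623 (0.57 ± 0.10, adjusted p = 0.017), named after its value was seen. Libraries did not overlap for 4 of the 6 upward and 1 downward, beside 7.59% and 6.7% of all genes, and 8.14% of all genes had an unadjusted p under 0.05. Since the choice fixed these counts, nothing is read from them.

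The calls at 240 h depended on which libraries were kept. Ptma, Tmsb10 and Sorcs2 stayed called without WM-2474 240 h replicate 3 and without DMSO 240 h replicate 3. None of the 3 genes was called without WM-2474 replicate 1, without WM-2474 replicate 2, without DMSO replicate 1 or without DMSO replicate 2, while their log2 fold changes lay between 0.27 and 0.38 when any 1 library was left out. Without both DMSO 240 h replicates that stood apart, Ptma had 0.29, Tmsb10 0.34, Sorcs2 0.27, Pfn1 0.18, Ptms 0.10 and Pfn2 -0.03, each with an adjusted p of 0.994 in the same test. That fit left 1 DMSO library at 240 h, assumed to vary like the other groups. Scaling by library totals left Tmsb10 at 0.33 with an adjusted p of 0.0844.

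**Figure D2:**
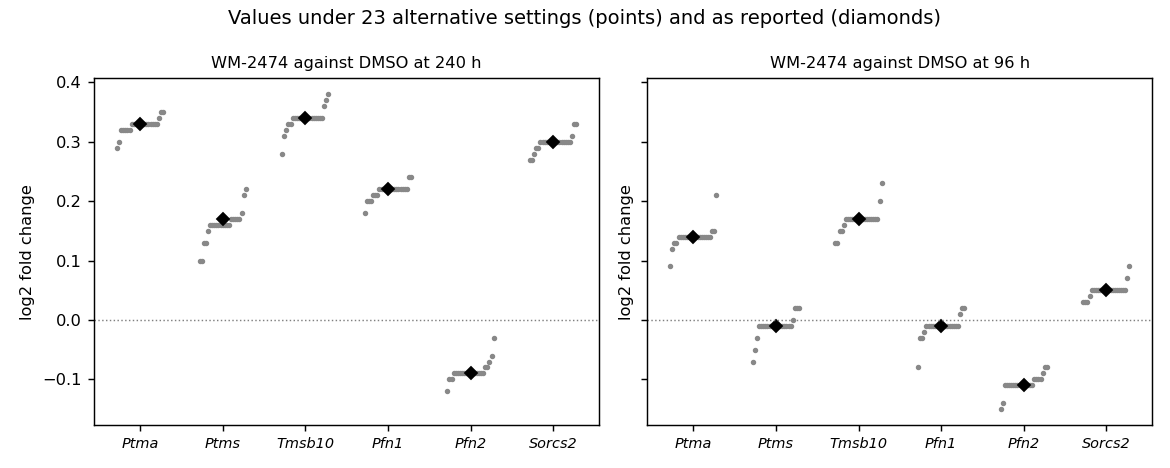
Log2 fold change of WM-2474 over DMSO (vertical axis) of the 6 genes tested, at 240 h on the left and at 96 h on the right, as reported (diamonds) and under 23 other settings (points, sorted by value). At 240 h Ptma keeps values of 0.29 to 0.35 and Sorcs2 of 0.27 to 0.33, and at 96 h Ptms and Pfn1 have values on both sides of 0.

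At 96 h, in libraries that played no part in choosing the genes, none of the 6 genes tested was called between WM-2474 and DMSO. Across all genes 0% were called in either direction, 0% higher and 0% lower, and 2.1% (283 genes) had an unadjusted p under 0.05. Calls numbered 0 with DESeq2, where 109 genes had an unadjusted p under 0.05, and 0 with limma-voom, where 399 did. The comparison asks what the control compound itself did to transcripts after the shorter exposure. Ptma had 177, 172 and 177 CPM with WM-2474, against 155, 147 and 175 CPM with DMSO. Tmsb10 had 229, 199 and 229 CPM with WM-2474, against 192, 190 and 204 CPM with DMSO. In both genes WM-2474 replicate 2 lay below DMSO replicate 3, and the other libraries kept the groups apart.

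At 96 h the log2 fold change was 0.14 ± 0.05 for Ptma (95% limits 0.03 and 0.25) and 0.17 ± 0.06 for Tmsb10 (0.05 and 0.29), each with an adjusted p of 1 in edgeR's quasi-likelihood test. Their unadjusted p was 0.0148 and 0.00807; that of Tmsb10 was the smallest of the 6. Sorcs2 had 101, 101 and 92.5 CPM with WM-2474, against 94.4, 92.7 and 97.4 CPM with DMSO, with 0.05 ± 0.05 (-0.06 to 0.15). For the relatives the estimates were at or below 0. Pfn1 had 676, 708 and 704 CPM with WM-2474, against 635, 736 and 734 CPM with DMSO, with -0.01 ± 0.05 (-0.11 to 0.09). Ptms had 562, 611 and 578 CPM with WM-2474, against 538, 614 and 614 CPM with DMSO, with -0.01 ± 0.06 (-0.14 to 0.12). Pfn2 had 71.9, 66.1 and 68.3 CPM with WM-2474, against 76.3, 76 and 69.9 CPM with DMSO, with -0.11 ± 0.06 (-0.22 to 0.01). Every one of the 6 overlapped between groups, whereas libraries did not overlap for 3.62% of all genes upward and 3.84% downward.

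Same-numbered libraries deviated together at 96 h, so replicate numbers were also taken as pairs there. The labels give only the numbers and do not state a pairing. With the number as a block in a fit of these 6 libraries, edgeR's quasi-likelihood test called Tmsb10 (0.17 ± 0.04, adjusted p = 0.035), 1 of 3 genes called among 13377. WM-2474 exceeded DMSO in all 3 same-numbered pairs of Tmsb10, with 229 against 192, 199 against 190 and 229 against 204 CPM. Ptma was also higher in all 3 pairs, with 177 against 155, 172 against 147 and 177 against 175 CPM. Pfn2 was lower in all 3, and Sorcs2 was higher in 2 of 3 and Ptms and Pfn1 in 1 of 3. In the same fit Ptma had 0.14 ± 0.04 and an adjusted p of 0.187. A block in the fit of all 12 libraries called none of the 6 at 96 h.

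The treatment differences at both times can be set beside each other as estimates. The effect at 240 h minus that at 96 h was 0.25 on the log2 scale for Sorcs2 (0.10 to 0.40), 0.23 for Pfn1 (0.08 to 0.37) and 0.19 for Ptma (0.03 to 0.35). It was 0.18 for Ptms (-0.01 to 0.36), 0.17 for Tmsb10 (0.00 to 0.34) and 0.02 for Pfn2 (-0.15 to 0.19). Leaving out DMSO 240 h replicates 1 and 2 gave estimates of 0.22 for Sorcs2, 0.19 for Pfn1, 0.15 for Ptma, 0.11 for Ptms, 0.17 for Tmsb10 and 0.07 for Pfn2. Each difference holds the comparison that chose the genes, so no test is read from it.

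Between 96 h and 240 h of culture, Sorcs2 rose under both treatments and Ptma fell under both. With WM-2474, 1 of the 6 tested genes rose and 1 fell at 240 h against 96 h, beside 30.7% of all genes called, 15.9% higher and 14.8% lower. In DMSO 1 rose and 5 fell, beside 34.8% of all genes called, 17.5% higher and 17.3% lower. With WM-2474 libraries did not overlap for 1 gene upward and 2 downward, beside 21.2% of all genes in each direction. In DMSO they did not overlap for 1 upward and 5 downward, beside 22.9% and 22.8% of all genes. An unadjusted p under 0.05 was found for 40.6% of all genes with WM-2474 and 43.5% in DMSO. Both comparisons use 240 h libraries that also took part in choosing the genes. Since the genes called there were higher with WM-2474, the choice favours low DMSO and high WM-2474 values at 240 h. For the chosen genes it thus favours falls with time in DMSO and rises with WM-2474. Tests and ratios over time that hold these genes share that leaning.

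Sorcs2, the Vps10 receptor, rose to 161 ± 6.08 CPM at 240 h with WM-2474, against 98.1 ± 4.89 CPM at 96 h (SD, n = 3 each). The log2 fold change was 0.71 ± 0.05, with an adjusted p of 2.36e-11 in edgeR's quasi-likelihood test. In DMSO it rose to 130 ± 3.62 CPM at 240 h, against 94.8 ± 2.39 CPM at 96 h, which is 0.46 ± 0.05 and an adjusted p of 8.2e-08. No 240 h library of Sorcs2 was as low as any 96 h library.

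Ptma, the linker histone-binding prothymosin, fell to 149 ± 4.94 CPM at 240 h with WM-2474, against 175 ± 3.05 CPM at 96 h (SD, n = 3 each). The log2 fold change was -0.24 ± 0.05 and the adjusted p 0.00138 by edgeR's quasi-likelihood test. In DMSO it fell to 118 ± 2.91 CPM at 240 h, against 159 ± 14.3 CPM at 96 h, with -0.43 ± 0.05 and an adjusted p of 9.55e-07. Its relative Ptms had 539 ± 48 CPM at 240 h and 584 ± 25.2 CPM at 96 h with WM-2474 (-0.12 ± 0.06, adjusted p = 0.167). In DMSO Ptms fell to 479 ± 23.9 CPM at 240 h, against 588 ± 44 CPM at 96 h (-0.29 ± 0.06, adjusted p = 0.000949).

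The actin-binding members did not pass the test over time with WM-2474 and fell in DMSO. With WM-2474, Tmsb10 had 211 ± 16.4 CPM at 240 h and 219 ± 17.3 CPM at 96 h (-0.05 ± 0.06, adjusted p = 0.532). Pfn1 had 715 ± 21.7 CPM at 240 h and 696 ± 17.7 CPM at 96 h (0.04 ± 0.05, adjusted p = 0.608), and Pfn2 had 62.1 ± 1.3 CPM at 240 h and 68.8 ± 2.93 CPM at 96 h (-0.15 ± 0.06, adjusted p = 0.0523). All 3 fell in DMSO. Tmsb10 fell by 0.23 ± 0.06 on the log2 scale (adjusted p = 0.00403), to 167 ± 6.4 CPM at 240 h, against 195 ± 7.76 CPM at 96 h. Pfn1 fell by 0.19 ± 0.05 (adjusted p = 0.00451), to 615 ± 17.8 CPM at 240 h, against 702 ± 57.4 CPM at 96 h. Pfn2 fell by 0.17 ± 0.06 (adjusted p = 0.0235), to 66.3 ± 2.57 CPM at 240 h, against 74 ± 3.63 CPM at 96 h. These adjusted p are from edgeR's quasi-likelihood test with n = 3 libraries per group. Passing in DMSO and not with WM-2474 does not show that the time courses differ, and that difference equals the estimates given for the treatment effects.

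**Figure D3:**
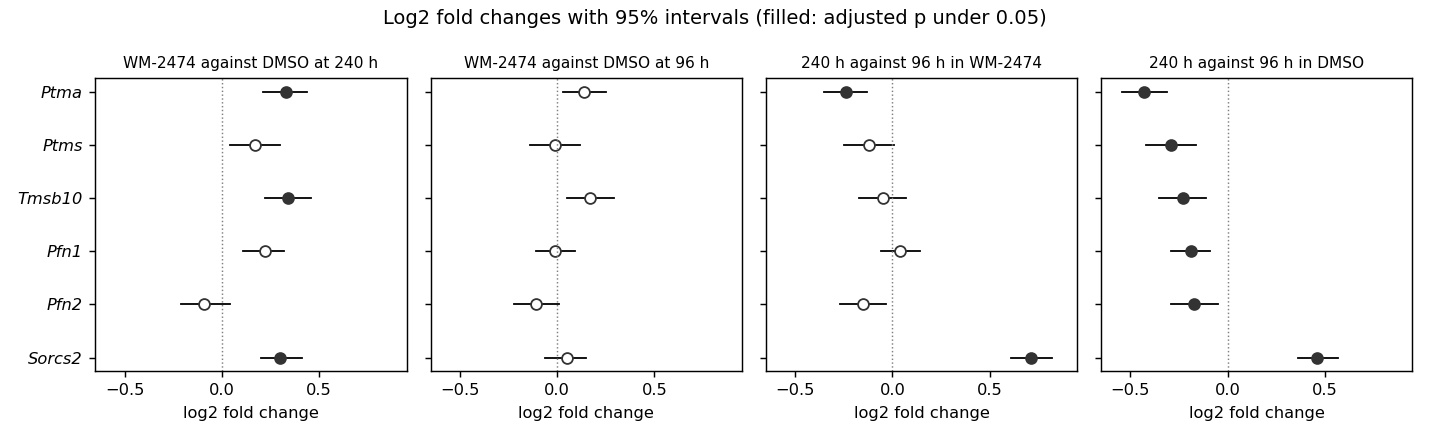
Log2 fold changes (horizontal axes) with 95% intervals of the 6 genes tested in the 4 comparisons, filled where the adjusted p was under 0.05. Sorcs2 lies right of 0 in both time comparisons and Ptma left of 0, and no gene is filled for WM-2474 against DMSO at 96 h.

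The time results depend on scaling and on the DMSO pair. TMM factors moved all genes up by 0.13 (WM-2474) and 0.12 (DMSO) on the log2 scale at 240 h against 96 h relative to library totals, and changes here are given relative to that shift. With library totals, 5 of the 6 were called with WM-2474, beside 8.13% of all genes higher and 32.5% lower. The 5 were Ptma (-0.37), Ptms (-0.25), Tmsb10 (-0.19) and Pfn2 (-0.28) downward and Sorcs2 (0.58) upward. Pfn1 changed sign to -0.09 (adjusted p = 0.127 in edgeR's quasi-likelihood test). Without DMSO 240 h replicates 1 and 2, 3 of the 6 were called in DMSO, Ptma (-0.39, adjusted p = 0.00119), Pfn2 (-0.22, adjusted p = 0.0497) and Sorcs2 (0.50, adjusted p = 1.72e-05). Ptms had -0.22 there, Tmsb10 -0.22 and Pfn1 -0.15, with adjusted p of 0.0892, 0.0737 and 0.182 in edgeR's quasi-likelihood test.

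Ratios within a library do not depend on scaling. The log2 ratio of Pfn2 to Pfn1 counts was -3.52 ± 0.05 (SD) with WM-2474 and -3.21 ± 0.09 with DMSO at 240 h, a difference of -0.31 given without a test. The ratio lay between 0.0842 and 0.0902 with WM-2474 and between 0.1 and 0.112 with DMSO, so the groups did not overlap. The difference was -0.21 without DMSO 240 h replicates 1 and 2. At 96 h the log2 ratio differed by -0.10 between WM-2474 and DMSO (two-sided exact permutation p = 0.6, n = 3 each). With WM-2474 it was -3.52 ± 0.05 at 240 h and -3.34 ± 0.10 at 96 h, a difference of -0.18 without overlap (exact p = 0.1, the smallest that 3 against 3 libraries allow). In DMSO the difference between times was 0.03 (exact p = 0.9), and it changed sign to -0.07 without DMSO 240 h replicates 1 and 2. The log2 ratio of Ptma to Ptms was -1.85 ± 0.16 with WM-2474 and -2.02 ± 0.05 with DMSO at 240 h, a difference of 0.16 without a test and of 0.20 without DMSO 240 h replicates 1 and 2. At 96 h it was -1.73 ± 0.09 with WM-2474 and -1.89 ± 0.15 with DMSO (exact permutation p = 0.3, unpaired). Within the same-numbered pairs at 96 h the ratio was higher with WM-2474 in all 3, with 0.315 against 0.289, 0.281 against 0.24 and 0.307 against 0.285 (exact sign-flip permutation p = 0.25, the smallest that 3 pairs allow). That of Pfn2 to Pfn1 was lower with WM-2474 in 2 of 3 pairs (exact p = 0.5). Between times the log2 ratio of Ptma to Ptms differed by -0.12 with WM-2474 and -0.13 in DMSO (exact permutation p = 0.3 and 0.4). Without DMSO 240 h replicates 1 and 2 the log2 ratio of Ptma to Ptms differed by -0.16 in DMSO. The groups of this ratio overlapped in all 4 comparisons. Adjusted over the 6 unpaired exact tests by Benjamini-Hochberg, the smallest p was 0.6.

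**Figure D4:**
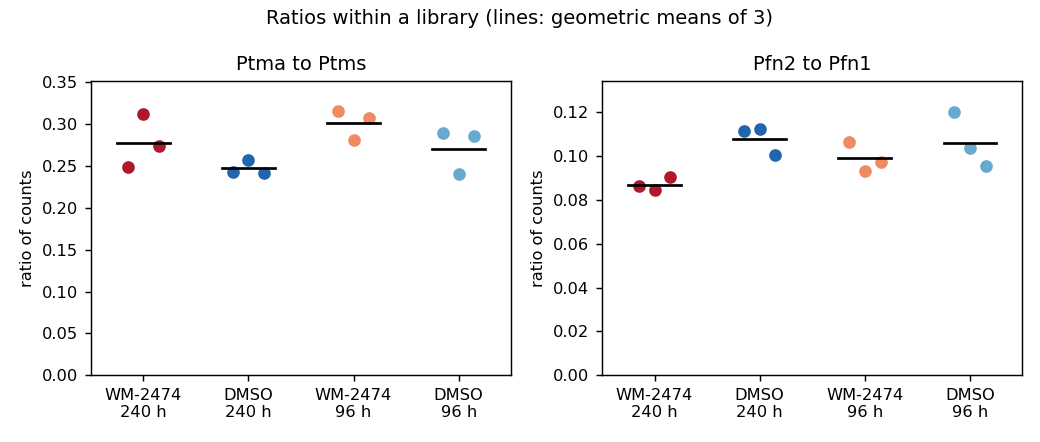
Ratio of counts within each library (vertical axes from 0), Ptma to Ptms on the left and Pfn2 to Pfn1 on the right, with points for libraries and lines for the geometric mean of 3. The Pfn2 to Pfn1 ratio is lower in the 3 WM-2474 libraries at 240 h, at 0.0842 to 0.0902, than in any other library.

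Genes whose pattern over the 12 libraries was closest to a member were ranked by the root mean square difference of log2 CPM, each gene centred on its own mean. For Ptma they were Rpp25l (0.0843), the tubulin gene Tuba1a (0.0907) and the mitochondrial import gene Timm17b (0.0919), beside a median of 0.267 over 13493 genes. Tuba1a averaged 167 CPM with WM-2474 and 130 CPM with DMSO at 240 h, and 188 CPM with WM-2474 and 186 CPM with DMSO at 96 h. For Tmsb10 they were Atpif1, the inhibitor of mitochondrial ATP synthase (0.0597), the protocadherin gene Pcdhgb7 (0.0734) and an identifier without a symbol (0.0776), beside a median of 0.229. For Sorcs2 they were the transcription factor gene Bcl11b (0.086), Frmd6 (0.0897) and the heparan sulfate sulfotransferase gene Hs6st1 (0.0903), beside a median of 0.35. Bcl11b averaged 53.1 CPM with WM-2474 and 45.8 CPM with DMSO at 240 h, and 32.1 CPM with WM-2474 and 30.2 CPM with DMSO at 96 h. The ranking used the 240 h libraries that chose the members and is a description.

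Genes that work beside the members were counted in 8 lists. In both treatment comparisons, at 240 h and at 96 h, 0 genes of any list were called, in lists of 6 to 21 tested genes. At 240 h their median log2 fold changes of WM-2474 over DMSO ran between -0.07 and 0.10 and at 96 h between -0.03 and 0.05, with 0.00 over all genes both times. The lowest at 240 h was that of histone chaperones and acidic nuclear proteins, the class of Ptma, with 14 of 17 genes below 0. The highest was that of Vps10 receptors, neurotrophins and their receptors, the class of Sorcs2, with 8 of 10 above 0. Its median of 0.10 became 0.06 without DMSO 240 h replicates 1 and 2, level with the actins and the formins (0.06 each), and that of the histone chaperones became -0.06, so the order of the upper lists rests on that pair. Over all genes the median was -0.00 with WM-2474 and -0.01 in DMSO between times. The lists' counts stand beside 15.9% higher and 14.8% lower of all genes with WM-2474 and 17.5% and 17.3% in DMSO. Counts of the lists with library totals stand beside 8.13% higher and 32.5% lower of all genes with WM-2474. In DMSO those shares were 8.82% and 32.5%. Without DMSO 240 h replicates 1 and 2, 10.6% of all genes were called higher and 9.79% lower in DMSO.

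Among other genes of actin monomer binding and filament turnover, more rose than fell with time. Of 15 tested, 6 rose and 1 fell with WM-2474 (median 0.13), and 7 rose and 1 fell in DMSO (median 0.15). With library totals 3 rose and 2 fell under either treatment, and the medians were -0.00 with WM-2474 and 0.02 in DMSO. In DMSO 5 rose and 1 fell without DMSO 240 h replicates 1 and 2 (median 0.18). Dstn, which encodes the filament-severing protein destrin, rose to 927 ± 40.8 CPM at 240 h with WM-2474, against 608 ± 32.1 CPM at 96 h (log2 fold change 0.61 ± 0.05, edgeR adjusted p = 1.71e-09), and by 0.65 ± 0.05 in DMSO. Gsn, encoding the severing and capping protein gelsolin, rose by 0.43 ± 0.04 with WM-2474 and 0.38 ± 0.04 in DMSO. Twf2, encoding the monomer-binding twinfilin-2, fell by 0.33 ± 0.09 with WM-2474 and by 0.41 ± 0.09 in DMSO.

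Of 6 actin genes, 5 rose and 1 fell with WM-2474 and 3 rose and 1 fell in DMSO (medians 0.60 and 0.50). With library totals 3 rose and 1 fell under either treatment, and without DMSO 240 h replicates 1 and 2, 3 rose and 0 fell in DMSO. Actin genes are close paralogs, so the split of their reads is uncertain. Smooth muscle actin Acta2 rose to 5699 ± 115 CPM at 240 h with WM-2474, against 2878 ± 120 CPM at 96 h (0.99 ± 0.05, edgeR adjusted p = 4.01e-14). In DMSO Acta2 rose to 5489 ± 369 CPM at 240 h, against 2842 ± 107 CPM at 96 h (0.95 ± 0.05, edgeR adjusted p = 7.23e-14). Actg2, the enteric smooth muscle actin, rose by 1.85 ± 0.13 with WM-2474 and 1.75 ± 0.13 in DMSO, and the cardiac actin Actc1 fell by 1.85 ± 0.53 with WM-2474 and by 1.41 ± 0.48 in DMSO, at 0.341 to 1.19 CPM in the 4 group means. MRTF, a coactivator held back by free actin monomers, works with the factor SRF. Of 13 genes of both factors and their targets, 12 rose and 0 fell under either treatment (medians 0.39 with WM-2474 and 0.44 in DMSO), and with library totals 9 rose with WM-2474 and 11 rose and 1 fell in DMSO. In DMSO 11 rose and 0 fell without DMSO 240 h replicates 1 and 2 (median 0.40). The contractile genes Tagln and Cnn1 rose by 0.91 ± 0.05 and 1.28 ± 0.07 with WM-2474, and by 0.84 ± 0.05 and 1.22 ± 0.07 in DMSO.

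Genes of filament assembly moved in both directions. Of 16 formins and Ena/VASP proteins, which take actin from profilin, 5 rose and 4 fell with WM-2474 and 6 rose and 4 fell in DMSO (medians -0.02 and -0.04), and with library totals the split turned to 2 and 8 with WM-2474 and 4 and 6 in DMSO. Without DMSO 240 h replicates 1 and 2, 3 rose and 1 fell in DMSO. Enah rose by 0.68 ± 0.06 with WM-2474 and 0.61 ± 0.06 in DMSO, and Daam1 by 0.49 ± 0.08 with WM-2474 and 0.43 ± 0.08 in DMSO. Diaph3 fell by 0.41 ± 0.07 with WM-2474 and by 0.27 ± 0.07 in DMSO. Fmn1 fell by 0.36 ± 0.10 with WM-2474 and Evl by 0.32 ± 0.07 in DMSO. Of 21 tested genes of the Arp2/3 complex and its activators, which branch filaments, 5 rose and 2 fell with WM-2474 and 8 rose and 1 fell in DMSO (medians 0.08 and 0.05). With library totals that split turned to 0 and 9 with WM-2474 and 3 and 4 in DMSO, so no direction is given for the complex. Without DMSO 240 h replicates 1 and 2, 4 rose and 1 fell in DMSO. The subunit genes Arpc2 and Arpc5 rose by 0.23 ± 0.04 and 0.28 ± 0.06 with WM-2474, and Actr3 and Actr2 by 0.25 ± 0.04 and 0.28 ± 0.06 in DMSO. Wasf3, an activator of the complex, fell by 0.51 ± 0.14 with WM-2474. The subunit gene Arpc1b fell by 0.19 ± 0.04 with WM-2474 and by 0.31 ± 0.04 in DMSO.

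Of 17 histone chaperones and acidic nuclear proteins, 0 rose and 10 fell with WM-2474 (median -0.14), and 1 rose and 6 fell in DMSO (median -0.06). With library totals 0 rose and 14 fell with WM-2474 and 0 rose and 11 fell in DMSO, and without DMSO 240 h replicates 1 and 2, 0 rose and 3 fell in DMSO. Asf1b, a chaperone of new histones, fell to 12.9 ± 1.47 CPM at 240 h with WM-2474, against 20.7 ± 0.532 CPM at 96 h (-0.66 ± 0.10, edgeR adjusted p = 7.95e-06). Chaf1a, the large subunit of the chromatin assembly factor, fell by 0.34 ± 0.07 in DMSO, and the DNA damage sensor gene Parp1 fell by 0.32 ± 0.05 with WM-2474 and 0.33 ± 0.05 in DMSO. Ncl, which encodes nucleolin, rose by 0.14 ± 0.05 in DMSO. Of 9 genes of prothymosin partners, processing and Myc, 1 rose and 1 fell with WM-2474 and 1 rose and 3 fell in DMSO (medians 0.03 and 0.06). With library totals these became 0 and 4 with WM-2474 and 0 and 3 in DMSO, with medians of -0.10 and -0.07, and without DMSO 240 h replicates 1 and 2, 0 rose and 1 fell in DMSO. Max, the partner of Myc, rose by 0.19 ± 0.06 with WM-2474 and 0.17 ± 0.06 in DMSO. The Myc relative Mycn fell by 0.91 ± 0.33 with WM-2474 and by 0.97 ± 0.28 in DMSO, and Keap1, the NRF2 inhibitor that binds prothymosin alpha, fell by 0.31 ± 0.06 in DMSO.

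Of 10 tested Vps10 receptors, neurotrophins and their receptors, 2 rose and 3 fell with WM-2474, and 2 rose and 3 fell in DMSO (medians -0.02 and -0.09). Those named here had group means of 0.513 to 5.06 CPM. The neurotrophin gene Ntf3 rose to 5.06 ± 0.561 CPM at 240 h with WM-2474, against 1.41 ± 0.343 CPM at 96 h (1.83 ± 0.22, edgeR adjusted p = 4.04e-07), and by 1.21 ± 0.21 in DMSO. Its receptor gene Ntrk3 rose by 0.94 ± 0.32 with WM-2474 and by 0.90 ± 0.32 in DMSO. Sorl1, another Vps10 receptor, fell by 1.40 ± 0.22 with WM-2474 and by 1.06 ± 0.22 in DMSO. Ntrk2, a receptor of another neurotrophin, fell by 1.73 ± 0.41 with WM-2474 and fell by 1.87 ± 0.39 in DMSO. Without DMSO 240 h replicates 1 and 2, 1 gene of the list rose and 2 fell in DMSO, and with library totals 2 rose and 4 fell with WM-2474 and 1 rose and 5 fell in DMSO. The calls named for single genes of the 8 lists had adjusted p of at most 0.0448 in edgeR's quasi-likelihood test (n = 3 libraries per group).

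**Figure D5:**
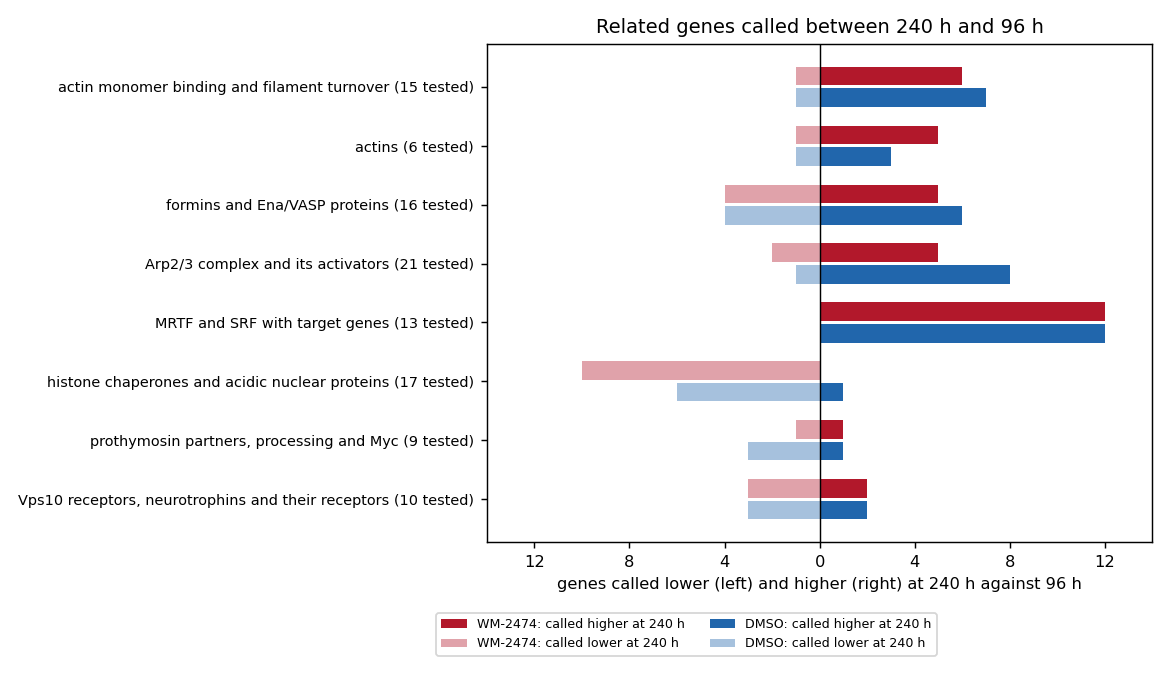
Number of genes called lower (left) and higher (right) at 240 h against 96 h in 8 lists of related genes, with WM-2474 above DMSO in each pair of bars and the number tested beside each name. The MRTF and SRF list has 12 genes higher and 0 lower under both treatments, and the histone chaperone list leans lower, with 10 lower with WM-2474 and 6 in DMSO.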

How the data were processed

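Stranded poly(A) libraries of 12 cultures (3 per group) were analysed. The authors deposited raw counts per gene with exon lengths; featureCounts and mm10 are named in the submitters' processing notes. The aligner, annotation, strand setting and treatment of multi-mapping reads are not given in the sources used here. Hence overlapping or antisense genes and genes with copies are uncertain. Of 27179 entries, 874 without an identifier (0.547 to 0.648% of counts) were left out; 25275 of 26305 identifiers (96.1%) matched a RefSeq GRCm38.p6 symbol, and gene positions come from that build. Columns were matched to samples by treatment, time and replicate number. Replicate pairs differed beyond counting noise (chi-square per degree of freedom 2.02 to 4.99).

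Genes passing filterByExpr (13499) were fitted with edgeR 4.0.16 (TMM factors of 0.943 to 0.967 at 240 h and 1.04 to 1.05 at 96 h, robust quasi-likelihood, 1 coefficient per group, all 12 libraries, common biological variation 5.22%). P-values are two-sided and adjusted by Benjamini-Hochberg over all genes within a comparison, with a threshold of 0.05. In this fit a difference is judged against a spread between replicate libraries that is estimated over all groups together. Values after ± are SE beside log2 fold changes and SD beside CPM; intervals are 95%; the floor of 3 counts covers counting error only. Likeness used log2 CPM with a prior count of 2. Ratios were tested by exact permutation. Scripts were tested on simulated data. The members, lists and tests were chosen with earlier results of these data known.

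Named are the 7 members, up to 2 genes per list and direction in each time comparison by smallest p, the 3 most alike genes of Ptma, Tmsb10 and Sorcs2, and copies by shared words; Gapdh, Actb and Gm8623 were added after their values were seen, as were Xist and the B lineage values. Other settings tried were RLE size factors, library totals, 2 other filters, DESeq2 1.42.0, voom of limma 3.58.1, fits of 6 libraries, the replicate number as a block, leaving out libraries, and adding copies. Same-numbered libraries deviated together at 96 h (correlations 0.301, 0.235 and 0.191), so the numbers were taken as pairs there, which the labels do not state. Correlations were lower in the other comparisons. No correlation was computed between libraries of unlike number. R 4.3.3, Python 3.11.15, pandas 2.3.3 and matplotlib 3.10.9 were used.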

Additional observations from a re-analysis of the deposited data

How the results depend on the processing

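Over 23 alternatives the log2 fold changes at 240 h kept their sign in the 6 genes tested. The number of them called, 3, became 0 to 4 when 1 library was left out, 0 without DMSO 240 h replicates 1 and 2 together, 2 with library totals, and 4 with no filter, DESeq2 or a replicate block in 6 libraries, where Pfn1 was added. At 96 h the count of 0 became 1 with the replicate block in the 6 libraries and stayed 0 otherwise (0 to 0 when 1 library was left out). The count of 6 in DMSO over time was 5 to 6 when 1 library was left out, Pfn2 being lost without replicate 3 at 240 h and without replicates 1 or 2 at 96 h (also with DESeq2), and 3 without DMSO 240 h replicates 1 and 2. The count of 2 with WM-2474 was 2 to 3 when 1 library was left out and 5 with library totals. Signs changed for Ptms (-0.07 to 0.02) and Pfn1 (-0.08 to 0.02, among them 0.01 and 0.02) at 96 h when 1 library was left out, for Pfn1 over time with WM-2474 under library totals (-0.09), and for the Pfn2 to Pfn1 ratio over time in DMSO without DMSO 96 h replicate 3 (-0.05, in a range of -0.05 to 0.12 when 1 library was left out) and without DMSO 240 h replicates 1 and 2 (-0.07). The cause was not tested. The replicate block in 12 libraries changed no call of the 6 genes, with 3, 0, 6 and 2 called. Same-numbered libraries correlated at 0.0971, 0.114 and 0.0397 at 240 h and at 0.0557, 0.095 and 0.132 over time in DMSO. Over time with WM-2474 they correlated at -0.00783, 0.0804 and 0.0664. They were not taken as pairs in these comparisons.

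Over all genes at 240 h, 4 higher and 0 lower became 39 and 8 with no filter, 11 and 0 with DESeq2, 7 and 0 with limma-voom, 7 and 0 with the block, and 79 and 12 with the block in 6 libraries. Library totals gave 1097 higher and 4391 lower over time with WM-2474, against 2147 and 1999 with TMM factors, and 1190 and 4381 in DMSO, against 2364 and 2330. The list counts with library totals, and the values of lists, ratios and differences between effects without the DMSO pair, were added after the data were seen, as were the paired ratios at 96 h, whose block left the mean differences at 0.15 and -0.10. No Tmsb10 to Tmsb4x ratio was computed, since Tmsb4x lay at or near the floor.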
